A study of Mus musculus with 2 samples.

Results

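The genes described here are 9 genes of lipid and cholesterol handling, taken by name: *Apoe*, *Abca1*, *Abcg1*, *Nr1h3*, *Cd36*, *Lpl*, *Fabp4*, *Fabp5* and *Plin2*, out of 54838 genes measured. They were read in single-cell RNA-seq of resident macrophages of the mouse sciatic nerve (SN), a peripheral nerve. SNs of 19 male mice aged 10 to 12 weeks, all carrying Flt3-Cre and LSL-YFP fl/fl, were pooled, and CD64+ CD45int macrophages were sorted into a YFP− and a YFP+ group. Flt3 is expressed in multipotent blood progenitors, so YFP marks cells that descend from progenitors that once expressed it, and YFP− cells are those that Cre did not mark. Each group was loaded on its own lane and gave 1 library (1045 YFP− and 4053 YFP+ cells with at least 500 UMIs and 200 genes). Because each group is 1 library of pooled animals, no difference between YFP+ and YFP− cells can be told apart from a difference between lanes or libraries, no test was made, and the 95% intervals given below cover counting error only.

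Macrophages take up lipoproteins, lipids and cell debris, break them down in lysosomes, store the surplus in droplets and export cholesterol. Cholesterol leaves the cell through the ABC transporters ABCA1 and ABCG1 to carriers such as apolipoprotein E, and oxysterols switch these genes on through the liver X receptors, of which LXRα is encoded by *Nr1h3*. In peripheral nerve, where myelin is rich in cholesterol, macrophages are known for clearing myelin lipid after injury.

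A unique molecular identifier (UMI) stands for 1 captured RNA molecule, and levels are given as CPM, the UMIs of a gene summed over the cells of a library and scaled to one fixed library total, so that 27396 CPM is 2.74% of all UMIs. The reads were counted at the 3′ ends of transcripts, so that levels of different genes were compared per molecule and not per length. The libraries held 2418044 and 6747554 UMIs in cells, with medians of 2233 UMIs per YFP− and 1484 per YFP+ cell, and a count of 3 UMIs, taken as the floor, equals 1.24 and 0.445 CPM. All 12 macrophage markers, among them *Csf1r* (992 and 873 CPM) and *Fcgr1*, which encodes the sorted CD64, were present, and 99.2% of YFP− and 99.3% of YFP+ cells had a UMI on that list after each cell was thinned to 500 UMIs. Only 7 barcodes were cells in both libraries.

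The genes of these 9 lie on 7 chromosomes in GRCm38 (*Apoe* on chromosome 7, *Abca1* and *Plin2* on 4, *Fabp4* and *Fabp5* on 3, *Lpl* on 8, *Abcg1* on 17, *Nr1h3* on 2 and *Cd36* on 5). All are protein coding, and none shared exonic sequence with another gene on its strand in the last 500 bases, where these reads fall. Of the 50-base words in the last 500 bases of their transcripts, 5.95% of those of *Fabp5* and 3.93% of those of *Plin2* also occurred in other genes (*Gm6166* and *Gm14328*, and *Gm12551*). The counts of these 2 genes may therefore be affected by mapping.

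PPAR, LXR and RXR receptors bind DNA at repeats of AGGTCA, and 5 of the 9 genes had a RefSeq promoter window (GRCm38.p6, 250 bases before to 50 after a gene start). Among the 8 windows of these 5 genes, AGGTCA was found on either strand in 1 window of *Plin2* and 1 of *Cd36*, against 16.3% of all 32851 windows. The stretches around them are shown because they hold those letters, and the capitals mark AGGTCA as read on the opposite strand. They lie at chr4:86670245-86670304 and chr5:17836092-17836146, both on the minus strand. A match of letters is a description of these windows and not a binding site.
Plin2: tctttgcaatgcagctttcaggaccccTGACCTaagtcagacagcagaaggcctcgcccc
Cd36: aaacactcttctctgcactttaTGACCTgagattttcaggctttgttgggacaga

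The 9 genes spanned more than 4 orders of magnitude. *Apoe* was at 27396 CPM (27188 to 27606) in YFP− and 21402 CPM (21291 to 21512) in YFP+ cells, the rank 2 and rank 3 gene of these libraries and 2.74% and 2.14% of all UMIs. *Cd36*, a scavenger receptor and fatty acid translocase, followed at 556 CPM (527 to 587) in YFP− and 632 CPM (614 to 652) in YFP+ cells. *Plin2*, which coats lipid droplets, was at 132 CPM (118 to 148) and 147 CPM (138 to 157). The uptake and storage genes were therefore present at moderate levels beside a very abundant lipoprotein gene.

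*Lpl*, a secreted lipase that releases fatty acids from lipoproteins, was at 74.9 CPM (64.3 to 86.6) and 76.5 CPM (70.0 to 83.4). *Abca1* was at 62.0 CPM (52.5 to 72.8) and 42.8 CPM (38.0 to 48.1). Its interval overlapped that of *Lpl* in the YFP− and not in the YFP+ library. The fatty acid binding proteins were lower, with *Fabp4* at 17.4 CPM (12.5 to 23.5) and 16.7 CPM (13.8 to 20.1), and *Fabp5* at 11.6 CPM (7.69 to 16.7) and 9.63 CPM (7.43 to 12.3).

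The partner transporter and the receptor of the efflux pathway were close to the limit of these libraries. *Abcg1* had 5 UMIs in YFP− and 20 UMIs in YFP+ cells (2.07 and 2.96 CPM). *Nr1h3* had 3 and 5 UMIs (1.24 and 0.741 CPM), at the floor in the YFP− and just above it in the YFP+ library. The related receptor LXRβ, encoded by *Nr1h2*, was at 50.04 and 49.2 CPM.

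**Figure D1:**
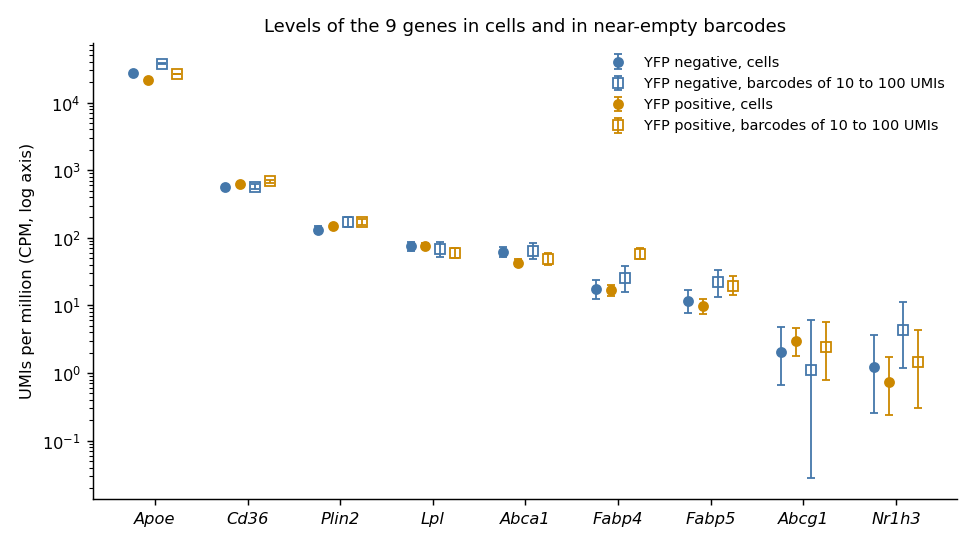
Level of each of the 9 genes in CPM (log axis) in cells (filled circles) and in barcodes of 10 to 100 UMIs (open squares) of the YFP− (blue) and YFP+ (orange) library, with exact Poisson 95% intervals. Apoe stands near 27396 and 21402 CPM, Cd36 near 556 and 632 CPM, and Abcg1 and Nr1h3 near 1 to 3 CPM, and the points of Fabp4 and Fabp5 lie higher in the near-empty barcodes than in cells.

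The 9 genes were also read in barcodes of 10 to 100 UMIs, which hold mostly free RNA. There *Apoe* was at 37533 CPM (YFP−) and 26456 CPM (YFP+), above its level in cells. *Cd36* was at 571 and 684 CPM there, and *Plin2* at 173 and 171 CPM. *Fabp4* was at 25.3 and 58.5 CPM and *Fabp5* at 22.0 and 19.7 CPM, higher than in cells except that the interval of the difference for *Fabp4* in the YFP− library held 0 (log2 ratio of cells over these barcodes −0.52, −1.25 to 0.25). *Lpl* in the YFP+ library was the one of the 9 genes whose level in cells lay above that of these barcodes beyond counting error (76.5 against 59.97 CPM).

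After thinning to 500 UMIs per cell, *Apoe* was seen in 99.0% of YFP− cells (98.2 to 99.5) and 96.6% of YFP+ cells (96.0 to 97.2). Its median was 12 UMIs in a YFP− and 9 UMIs in a YFP+ cell. In a cluster with *Acta2*, *Tagln* and *Myl9*, genes of contractile vessel wall cells, among its leading genes, named mural-like, a UMI of *Apoe* was seen in 71.4% of 14 YFP− and 73.6% of 87 YFP+ cells, with median depths of 1080 and 936 UMIs. A UMI of *Apoe* is thus no mark of an expressing cell here, and its number per cell says more than its presence.

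*Cd36* was seen in 23.1% of YFP− (20.5 to 25.7) and 26.3% of YFP+ cells (24.95 to 27.7), against 14.3% and 12.6% of cells in that mural-like cluster. *Plin2* was seen in 6.79% of both, *Lpl* in 3.44% and 3.97%, and *Abca1* in 3.16% and 2.49%. The intervals of the 2 libraries overlapped for each of these 4 genes. *Fabp4* and *Fabp5* were each seen in under 1% of cells, *Abcg1* in 0 of 1045 YFP− cells and 0.148% of YFP+ cells, and *Nr1h3* in 1 cell of each library. Without thinning, *Cd36* was seen in 63.2% and 57.1% of cells.

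Of the 9 genes, 5 had a mean of at least 20 CPM over the 2 libraries, the minimum at which folds were counted over all genes. Of these 5, 0 showed a difference between the libraries of 1.5-fold or more, against 7.30% of the 5531 genes above that minimum. *Apoe* was lower in YFP+ than in YFP− cells by 0.36 on the log2 scale (log2 ratio of CPM + 1 −0.36, −0.37 to −0.34), which is 1.28-fold. *Abca1* was lower by 1.44-fold (−0.52, −0.81 to −0.24). *Cd36* was higher in YFP+ cells by 1.14-fold (0.18, 0.10 to 0.27). The carrier and its transporter were thus lower in the YFP+ library and the scavenger receptor slightly higher.

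The intervals of the other genes held 0, being −0.03 to 0.34 for *Plin2*, −0.21 to 0.28 for *Lpl*, −0.55 to 0.46 for *Fabp4* and −0.85 to 0.39 for *Fabp5*. For *Abcg1* (−0.70 to 1.38) and *Nr1h3* (−1.44 to 0.70) they reached past 2-fold in at least 1 direction, so that a difference of that size was not detectable at this depth. *Apoe* in free RNA was also lower in the YFP+ library. Among YFP− cells its level was 36766 CPM in the shallowest of 4 equal groups of cells by UMI total and 25599 to 27635 CPM in the others. In the YFP+ library the 4 groups gave 20244 to 23351 CPM. The part of free RNA and depth in the difference of *Apoe* was not tested.

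**Figure D2:**
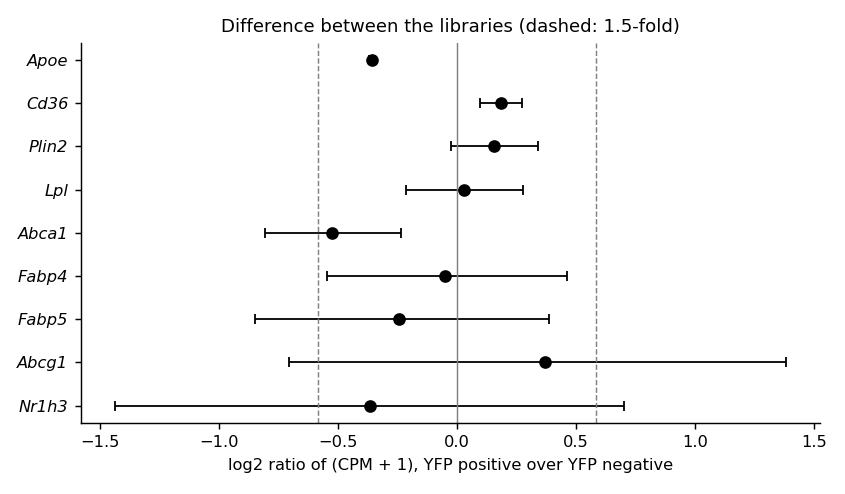
Log2 ratio of (CPM + 1) in YFP+ over YFP− cells for each of the 9 genes, with 95% intervals of counting error and dashed lines at 1.5-fold. Only Apoe (−0.36), Abca1 (−0.52) and Cd36 (0.18) have intervals that leave out 0, and no point lies beyond 1.5-fold.

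The pooled difference was set beside the difference within 11 clusters of cells, made without the 9 genes and without the other lipid genes listed below. *Apoe* was lower in YFP+ cells in 8 of 11 clusters, in each of these 8 with an interval below 0, and the log2 ratios ran from −0.70 to 0.82 with a median of −0.22. It was 32319 against 21957 CPM in the cluster led by *Cxcl2* and *Hspa1a*, and 29015 against 28157 CPM in the one led by *Gpx3* and *Cyr61*. The exceptions were the clusters led by *Cd209f* (11215 and 12164 CPM), by *Lrrc8a* (24681 and 26447 CPM) and the mural-like cluster (6468 and 11387 CPM). Ratios past 1.5-fold were found only in the cluster led by *Top2a* (−0.70, 13 YFP− cells) and the mural-like one (0.82, 14 YFP− cells). The intervals do not hold the spread of *Apoe* from cell to cell, so whether its difference varied between clusters was not tested.

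*Cd36* was higher in YFP+ cells in 10 of 11 clusters, the exception being the mural-like one, and its interval lay above 0 in 4. *Abca1* was lower in 6 and higher in 5, and its interval lay below 0 in 2, those led by *S100a4* (94.8 against 20.2 CPM) and by *Cxcl2* (75.6 against 36.4 CPM). *Plin2* and *Lpl* were each higher in 5 clusters and lower in 6. The interval of *Plin2* lay above 0 in 1 cluster, led by *Ccl12* (102 against 156 CPM, 0.61, 0.0088 to 1.24), and that of *Lpl* below 0 in 1, led by *Engase* (106 against 54.2 CPM, −0.95, −1.53 to −0.37).

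Cells were next set apart by lists of state genes, as cells with at least 2 UMIs on a list against cells with none in the same library, after thinning. The Ccr2 list (*Ccr2*, *S100a4*, *S100a6*, *Ly6c2*, *Plac8*, *Lgals3*, *Vim* and *Ahnak*), took in 99 YFP− cells (9.47%) and 708 YFP+ cells (17.5%). *Plin2* was higher in these cells, at 257 against 125 CPM among YFP− cells (log2 ratio 1.03, 0.59 to 1.45) and 193 against 123 CPM among YFP+ cells (0.65, 0.42 to 0.88). *Apoe* was lower, at 19943 against 28725 CPM (−0.53, −0.57 to −0.48) and 14205 against 24268 CPM (−0.77, −0.80 to −0.75). Of the 8 genes, *Ly6c2* (1 and 0 UMIs) and *Plac8* (0 and 0) were near or at 0, so the set rested on the other 6. The highest of these were *Ahnak* (298 and 376 CPM), *Vim* (240 and 302 CPM) and *S100a6* (159 and 377 CPM), with *Ccr2* itself at 124 and 292 CPM. With 1 UMI on the list as the limit, *Apoe* was still lower in both libraries (−0.27 and −0.45), while the *Plin2* ratio was 0.28 (−0.08 to 0.62) among YFP− and 0.54 (0.36 to 0.72) among YFP+ cells, so that the YFP− interval then held 0.

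*Fabp5* was higher in the same cells of both libraries, at 43.5 against 9.62 CPM (2.07, 0.84 to 3.20) and 17.1 against 6.41 CPM (1.29, 0.45 to 2.096), though on 27 and 45 UMIs in all, and with 1 UMI on the list as the limit the YFP− ratio was 0.75 (−0.39 to 1.84). *Lpl* was at 78.4 against 70.8 CPM among YFP− cells (0.15, −0.64 to 0.86) and higher, at 108 against 69.7 CPM, among YFP+ cells (0.63, 0.32 to 0.93). *Abca1* was at 87.1 against 62.3 CPM among YFP− cells (0.48, −0.28 to 1.17, and 1.203, 0.36 to 1.96 with 3 UMIs as the limit) and lower among YFP+ cells, at 30.9 against 52.1 CPM (−0.73, −1.26 to −0.24). *Cd36* was at 522 against 560 CPM among YFP− cells (−0.10, −0.39 to 0.17). Among YFP+ cells it was slightly lower, at 590 against 646 CPM (−0.13, −0.25 to −0.0096). Without the mural-like cluster the YFP+ interval of *Cd36* held 0 (−0.08, −0.20 to 0.04). Of the 5 genes with a mean of at least 20 CPM, 1 differed by 1.5-fold or more among YFP− cells, where 26.7% of genes did, and 4 among YFP+ cells, where 6.71% did.

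The Cd209 list (*Cd209a*, *Cd209b*, *Cd209d*, *Cd209f*, *Cd209g*, *Fcna*, *Cbr2*, *Folr2*, *Cd163* and *Lyve1*) held lectins, scavenger receptors and other genes of resident perivascular macrophages. Its highest genes were *Cd163* (1079 and 1022 CPM), *Cbr2* (559 and 434 CPM), *Folr2* (366 and 286 CPM) and *Lyve1* (314 and 230 CPM). The *Cd209* genes and *Fcna* were lower, led by *Cd209a* (58.7 and 47.7 CPM), so the set rested mostly on the former. The list took in 360 YFP− and 1097 YFP+ cells. *Cd36* was higher in these cells in both libraries, at 625 against 492 CPM (0.34, 0.15 to 0.53) and 717 against 566 CPM (0.34, 0.23 to 0.45). *Apoe* was also higher, at 27876 against 26306 CPM (0.08, 0.06 to 0.11) and 24094 against 19416 CPM (0.31, 0.29 to 0.33). *Fabp5* was lower in both, by −2.03 (−3.53 to −0.63) and −1.37 (−2.42 to −0.33) on the log2 scale. *Abca1* was at 58.3 against 56.4 CPM among YFP− cells and higher, at 61.9 against 32.9 CPM, among YFP+ cells (0.89, 0.49 to 1.30). Of the 5 genes, 0 among YFP− cells (13.2% of genes) and 1 among YFP+ cells (4.85%) differed by 1.5-fold or more.

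On the early-response list (*Fos*, *Jun*, *Egr1*, *Hspa1a* and others), which cells also express when a tissue is digested, *Apoe* was higher by 0.25 (0.22 to 0.27) and 0.22 (0.20 to 0.24). *Lpl* was lower in the same cells of the YFP− library, at 60.4 against 90.9 CPM (−0.58, −1.08 to −0.09, and −1.08, −1.72 to −0.47 with 3 UMIs as the limit), and was at 73.9 against 77.8 CPM among YFP+ cells (−0.07, −0.36 to 0.22). *Cd36* was lower among YFP+ cells (−0.12, −0.22 to −0.02), with a YFP− interval of −0.04 to 0.32. *Fabp4* was higher in both (1.40, 0.35 to 2.52, and 0.66, 0.05 to 1.29), and without the mural-like cluster both intervals held 0 (0.31, −0.92 to 1.57, and 0.02, −0.67 to 0.72). On the inflammatory list (*Il1b*, *Cxcl2*, *Ccl4* and others, 51 and 293 cells), *Cd36* was at 455 against 559 CPM (−0.30, −0.67 to 0.05) and 514 against 637 CPM (−0.31, −0.48 to −0.14), and *Plin2* at 178 against 130 CPM (0.46, −0.17 to 1.03) and 184 against 142 CPM (0.37, 0.07 to 0.66). On the cycling list (46 and 272 cells), *Apoe* was lower in both libraries, at 22537 against 28105 CPM and 14938 against 22074 CPM. *Plin2* in cycling-list cells was lower in the YFP+ library alone (96.8 against 154 CPM, −0.66, −1.10 to −0.26, and −0.32, −0.94 to 0.24 with 3 UMIs as the limit), and its YFP− interval was −0.60 to 0.73. Of the 5 genes, none differed by 1.5-fold or more on the early-response list (0 and 0, against 10.7% and 3.22% of genes) or on the inflammatory list (0 and 0, against 34.4% and 14.5%), and on the cycling list 0 and 2 did (34.1% and 13.3%). The interferon list (1 and 19 cells) and the cells with no UMI on the MHC class II list (17 and 47) were too few to compare.

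**Figure D3:**
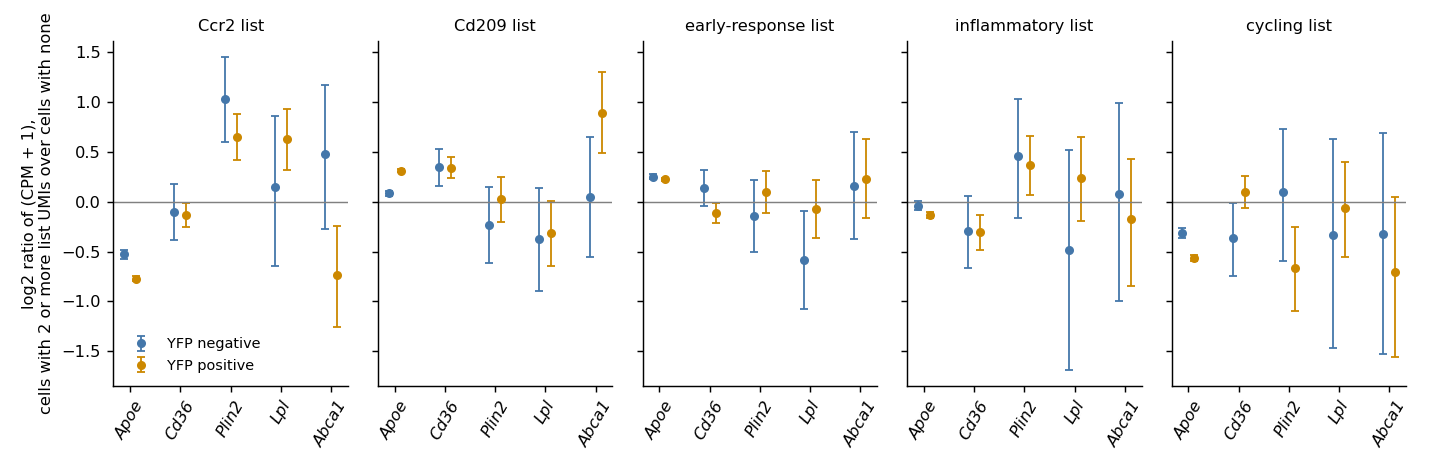
Log2 ratio of (CPM + 1) in cells with at least 2 UMIs on a state list over cells with none, within the YFP− (blue) and YFP+ (orange) library, for the 5 genes with a mean of at least 20 CPM, with 95% intervals of counting error. On the Ccr2 list Plin2 lies above 0 (1.03 and 0.65) and Apoe below it (−0.53 and −0.77) in both libraries, while Abca1 lies on different sides (0.48 and −0.73).

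By cluster, *Cd36* and *Abca1* were highest in the one led by *Cd209f*, *Cd209g* and *Fcna* (50 YFP− and 93 YFP+ cells), which was named Cd209 list-like. *Cd36* reached 1062 CPM (845 to 1318) there among YFP− and 1133 CPM (961 to 1327) among YFP+ cells, against 540 and 622 CPM in the other cells. *Abca1* was at 142 and 162 CPM against 59.4 and 40.4 CPM. *Apoe* was at 11215 and 12164 CPM against 27930 and 21591 CPM, a log2 ratio of −1.32 (−1.41 to −1.22) and −0.83 (−0.90 to −0.76). This small cluster thus combined high *Cd36* and *Abca1* with low *Apoe*, whereas the much larger set of cells with 2 or more UMIs on the Cd209 list had slightly higher *Apoe*.

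*Plin2* in the *Cd209f*-led cluster was at 194 CPM (109 to 320) and 280 CPM (198 to 384). Of the 5 genes, 3 among YFP− cells (where 55.2% of genes did, on few UMIs) and 4 among YFP+ cells (41.5%) differed by 1.5-fold or more from the other cells. The median depth of its cells was 1173 and 1329 UMIs, below that of each library, and *Cd36* in CPM was also higher in shallow cells (777 to 468 CPM from the shallowest to the deepest of 4 equal groups of YFP− cells, and 732 to 609 CPM of YFP+ cells). The part of depth in the level of this cluster was not tested.

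In the cluster led by *S100a4*, *Lgals3* and *S100a6*, named Ccr2 list-like (63 and 611 cells), *Plin2* was at 265 CPM (191 to 359) and 204 CPM (179 to 231), against 123 and 135 CPM in the other cells. *Lpl* was at 139 CPM (87.1 to 210) and 105 CPM (87.4 to 125), against 70.4 CPM in the other cells of each library, and the YFP− log2 ratio of 0.97 turned to −0.22 at a coarser clustering. *Abca1* was at 94.8 CPM (53.0 to 156) among YFP− and 20.2 CPM (12.9 to 30.0) among YFP+ cells of this cluster. Of the 5 genes, 3 among YFP− cells (34.2% of genes) and 2 among YFP+ cells (8.17%) differed by 1.5-fold or more.

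Among the other clusters, *Apoe* was highest in the one led by *Engase* and *Zfp157*, with 3 mitochondrial genes among its leading 10 (33466 and 28697 CPM), and low in the cycling list-like cluster led by *Top2a* (16650 and 10217 CPM, 13 and 58 cells). It was 22307 and 17269 CPM in the cluster led by *Cxcl13* and *Fhl3*, which held 5.93% of YFP− and 24.8% of YFP+ cells. *Cd36*, by contrast, lay between 433 and 726 CPM in every cluster and library other than the *Cd209f*-led and mural-like clusters. In the mural-like cluster, *Apoe* and *Cd36* were both low (6468 and 11387 CPM, and 359 and 233 CPM), the log2 ratio of *Apoe* over the other cells being −2.09 (−2.34 to −1.86) and −0.92 (−0.999 to −0.85). *Fabp4* was at 719 and 257 CPM there, against 10.9 and 12.2 CPM in the other cells. The levels in this cluster rested on 16 UMIs in 14 YFP− cells and 32 UMIs in 87 YFP+ cells. After thinning, 1 and 4 of these cells had a UMI of *Fabp4*, so they are no trait of the cluster as a whole.

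**Figure D4:**
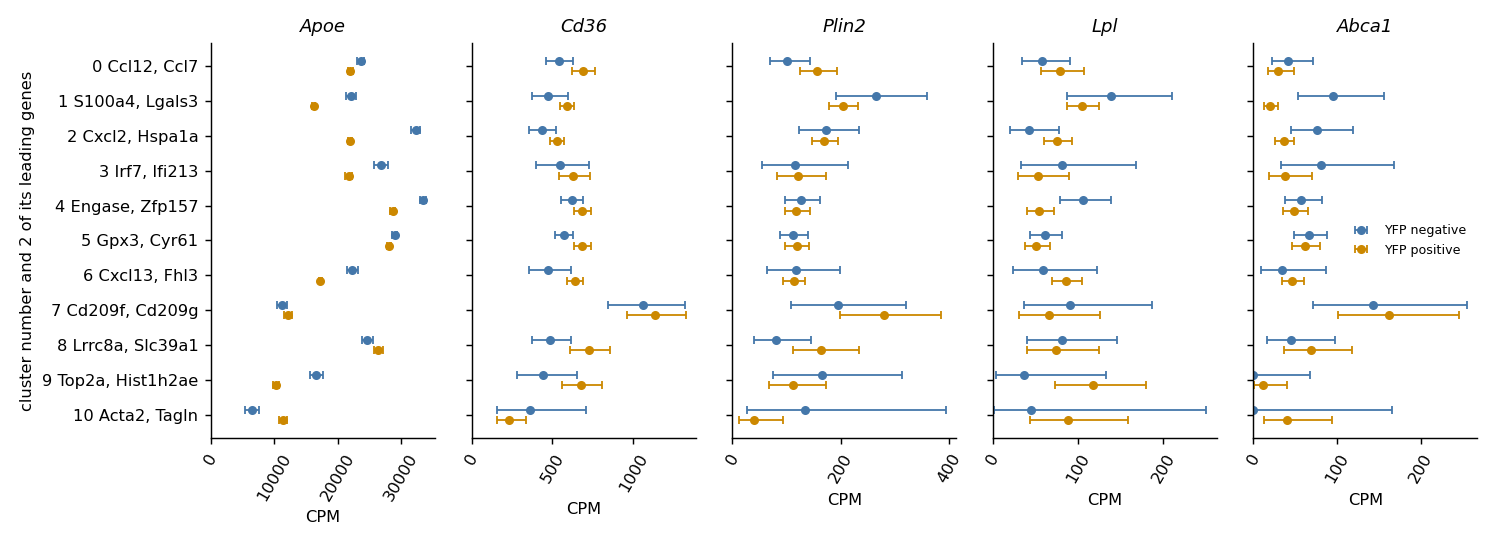
Level in CPM (linear axes from 0) of Apoe, Cd36, Plin2, Lpl and Abca1 in 11 clusters, named by number and 2 of their leading genes, in the YFP− (blue) and YFP+ (orange) library with exact Poisson 95% intervals. The Cd209f-led cluster has the highest Cd36 (1062 and 1133 CPM) and Abca1 (142 and 162 CPM), and the S100a4-led cluster a Plin2 level of 265 and 204 CPM.

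The spread across cells differed among the genes. *Apoe* had a residual variance (the variance of counts over that which the depth of the cells gives, with 1 as no excess) of 31.9 among YFP− and 19.7 among YFP+ cells, at the 99.9 percentile of genes in both. Its share of a cell's UMIs had a 5 to 95 percentile range of 0.526% to 6.99% in YFP− and 0.213% to 5.27% in YFP+ cells. The 1% of cells with most *Apoe* held 5.32% and 5.02% of its UMIs. *Apoe* was thus graded over nearly all cells rather than concentrated in a few.

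*Fabp4* had a residual variance of 8.85 and 4.71 (99.6 and 99.4 percentile) on few UMIs, against 1.14 and 1.10 for *Fabp5*, which was as sparse. The 1% of cells with most *Fabp4* held 66.7% and 67.3% of its UMIs, but such a share is high for any gene this sparse, and was 64.3% and 75.4% for *Fabp5* and 100% for *Abcg1* and *Nr1h3*. A single YFP− cell held 16 of 42 UMIs, and 3 YFP+ cells held 32 of 113. These cells, taken at 5 or more UMIs, a limit set after the values were seen, carried some transcripts of blood vessel endothelium and lacked others. The YFP− cell had 3 UMIs of *Pecam1*, 3 of *Ly6c1* and none of *Csf1r*, and the YFP+ cells had 5 of *Esam*, 5 of *Ly6c1*, 9 of *Cd36*, 7 of *Lpl* and 7 of *Csf1r*. Of the other endothelial genes read, *Cdh5* had 1 UMI in the YFP− cell and 2 in the YFP+ cells, and *Flt1* had 1 in each library. *Pecam1* had 2 UMIs in the YFP+ cells. *Egfl7* and *Cldn5* had 0 UMIs in these cells of both libraries, and *Esam* had 0 in the YFP− cell.

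Of the 8 adipocyte markers, *Adipoq*, *Cidec* and *Lep* had 0 UMIs in both libraries, and *Plin1*, *Retn* and *Pck1* had 0 and 1 UMIs each. *Cfd* had 15 UMIs in YFP− and 7 in YFP+ cells, and *Car3* had 5 and 9. In the cells with a UMI of *Fabp4*, *Cfd* had 2 UMIs among YFP− and 0 among YFP+ cells. The mural-like cluster (14 and 87 cells) held 38.1% and 28.3% of all *Fabp4* UMIs. In the YFP− library these were 16 UMIs, as many as the single cell above held. Without the mural-like cluster, *Fabp4* was at 10.9 and 12.2 CPM. Its log2 ratio on the Ccr2 list in the YFP− library went from 3.19 (2.25 to 4.11) to 1.41 (−0.12 to 2.74), on 22 and 6 UMIs in the list cells. In the YFP+ library that ratio rose instead, from 0.34 (−0.33 to 0.98) to 1.12 (0.37 to 1.85), on 27 and 25 UMIs in the list cells. *Fabp5* remained at 10.0 and 9.06 CPM without that cluster, and its Ccr2 list ratios at 1.97 (0.61 to 3.21) and 1.17 (0.28 to 2.02). This cluster was left out as a choice made after seeing the data.

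**Figure D5:**
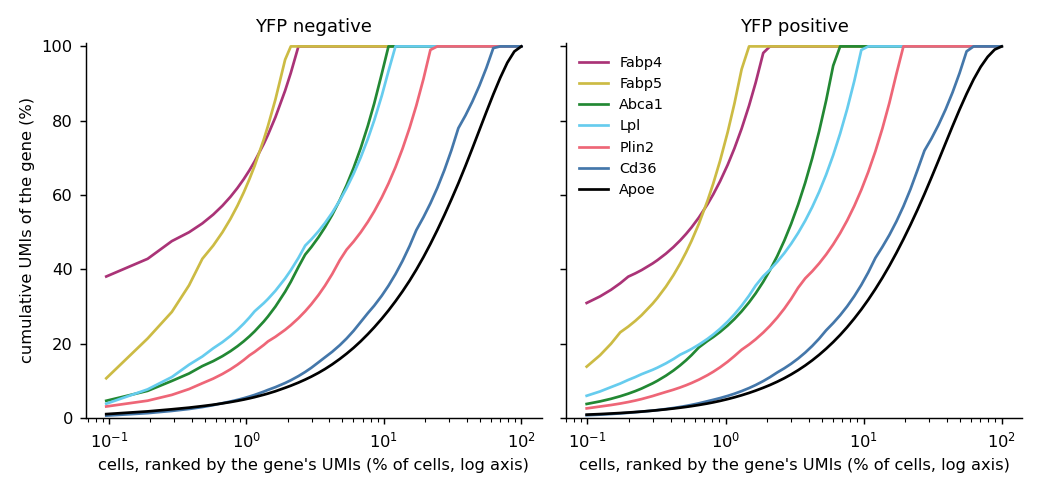
Cumulative percentage of a gene's UMIs (y axis) of 7 of the 9 genes (Abcg1 and Nr1h3 are not drawn) held by the cells with most UMIs of that gene, as a percentage of all cells (x axis, log scale), in the YFP− and YFP+ library. In 1% of cells lie 66.7% and 67.3% of the UMIs of Fabp4, 64.3% and 75.4% of those of the similarly sparse Fabp5, and 5.32% and 5.02% of those of Apoe.

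Across cells thinned to 500 UMIs, no pair of the 9 genes correlated by more than 0.08 in size in either library (1045 and 4053 cells), which in counts this sparse is no finding. Among 2632 genes compared, with a mean of at least 50 CPM, those most like *Apoe* across cells were *Lyz2* (r = 0.34 and 0.23), *C1qa* (0.25 and 0.20) and *Cd74* (0.27 and 0.17), all abundant macrophage genes. For *Cd36* they were *Tgfbr2*, *Retnla* and *Pf4*, with r of at most 0.09. The points of each library share its depth and its free RNA.

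The wider pathway was read on 9 lists with 107 further lipid genes, of which 49 had a mean of at least 20 CPM. Between the libraries, 2 of the 49 were 1.5-fold or more higher in YFP+ cells (1.54% of all genes tested) and 0 were lower (5.77%), and their median log2 ratio was 0.05, beside −0.0024 over all genes tested. The higher ones were *Insig1*, which holds back sterol synthesis (42.6 and 65.4 CPM), and *Apod*, a lipocalin apolipoprotein (15.7 and 33.5 CPM). *Apod* was at 12.1 and 11.3 CPM without the mural-like cluster, and the fibroblast list summed to 28.1 and 104 CPM and the mural list to 10.3 and 119 CPM in these libraries, while *Insig1* was at 41.3 and 65.4 CPM without it. The share of all genes tested whose intervals left out 0 was not counted, so the next numbers describe these genes only. Over the 49 genes, the intervals of 7, these 2 included, lay above 0 and those of 7 below it. Among the latter were *Stab1* (−0.47, −0.55 to −0.39), the lysosomal phospholipase *Pla2g15* (80.6 and 58.7 CPM, −0.45, −0.70 to −0.20), *Stard3*, which carries cholesterol at the late endosome (50.5 and 37.3 CPM, −0.42, −0.73 to −0.11), and *Cyp27a1* (−0.40, −0.58 to −0.23), each chosen after its value was seen.

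Among uptake receptors the most abundant were *Stab1*, a scavenger receptor (770 and 556 CPM), and *Trem2*, a lipid-sensing receptor of macrophages (317 and 353 CPM). Among lysosomal lipid genes they were *Psap*, the saposin precursor (971 and 1039 CPM), and *Npc2*, which takes part in moving cholesterol out of the lysosome (817 and 845 CPM). *Pltp*, the phospholipid transfer protein, was at 229 and 220 CPM, *Abca9*, an ABC transporter, at 203 and 194 CPM, and *Cyp27a1*, which makes an oxysterol ligand of LXR, at 162 and 122 CPM. The other lists were lower, led by *Etfb* (119 and 111 CPM) and *Acadm* (43.4 and 55.4 CPM) of fatty acid oxidation, *Ebp* (67.0 and 70.7 CPM) and *Srebf2* (65.8 and 59.6 CPM) of sterol synthesis, and *Plin3* (51.7 and 49.9 CPM) and *Pnpla2* (49.2 and 41.5 CPM) of lipid droplets. *Rxrb*, a partner of the receptors above, was at 27.3 and 18.5 CPM, and of the fatty acid synthesis list *Elovl5* was at 21.9 and 26.5 CPM and *Srebf1* at 9.10 and 7.85 CPM.

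On the Cd209 list, where *Cd36* was higher, the summed uptake receptors were at 1504 against 1239 CPM among YFP− cells (log2 ratio 0.28, 0.16 to 0.40) and 1336 against 1118 CPM among YFP+ cells (0.26, 0.18 to 0.34). Without the mural-like cluster these ratios were 0.26 (0.14 to 0.38) and 0.25 (0.17 to 0.33). On the Ccr2 list the uptake receptors had ratios of −0.24 (−0.42 to −0.06) and −0.10 (−0.19 to −0.02), and without that cluster the YFP+ interval held 0 (−0.07, −0.16 to 0.02). In all cells these receptors summed to 1377 and 1207 CPM, of which *Stab1* gave 770 and 556 CPM and *Trem2* 317 and 353 CPM. The sums therefore rested mostly on *Stab1* and *Trem2*.

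The summed sterol synthesis genes were higher on the Ccr2 list, at 653 against 358 CPM among YFP− cells (0.86, 0.60 to 1.12) and 547 against 402 CPM among YFP+ cells (0.44, 0.31 to 0.58). Without the mural-like cluster they were still higher, at 502 against 349 CPM (0.52, 0.22 to 0.82) and 493 against 399 CPM (0.30, 0.16 to 0.44). On the cycling list the ratios of 0.75 (0.43 to 1.05) and 0.28 (0.09 to 0.46) became 0.20 (−0.19 to 0.57) and 0.07 (−0.13 to 0.27) without it. On the Cd209 list they went from −0.25 (−0.47 to −0.03) and −0.26 (−0.39 to −0.12) to −0.04 (−0.27 to 0.19) and −0.15 (−0.28 to −0.01). On the inflammatory list without that cluster they were 0.14 (−0.26 to 0.52) and 0.32 (0.14 to 0.49). Summed lipoprotein genes (0.53 and 0.46) and lysosomal lipid genes (0.34 and 0.16) were also higher on the Ccr2 list without it. Other lipid transporters and sterol enzymes had ratios of −0.04 and −0.15 there. Whether sterol synthesis rose more than other genes was not tested.

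The summed fatty acid synthesis genes on the Ccr2 list were at 113 against 56.0 CPM (1.001, 0.33 to 1.63) and 78.0 against 45.6 CPM (0.76, 0.39 to 1.12). Without the mural-like cluster the YFP− interval held 0 (0.52, −0.36 to 1.32), while the YFP+ ratio was 0.50 (0.09 to 0.90). Their YFP− ratio on the Cd209 list changed sign, from −0.69 (−1.34 to −0.06) to 0.11 (−0.62 to 0.83). The contrasts of both synthesis lists therefore rested in part on this small cluster.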

How the data were processed

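The deposited matrices hold whole UMI counts without any normalization, from 10x Chromium v2 libraries that the authors aligned to GRCm38 with Cell Ranger, for 124162 and 187104 barcodes with a UMI. The release of the annotation is not given in the sources used here. Per the labels, the processing notes name Cell Ranger 3.0.2 and Seurat 2.2.0. Groups were taken from the cell type given in the sample labels.

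Cells were barcodes with at least 500 UMIs and 200 genes, since the study's own minimum, on mapped reads, could not be applied to UMI counts. Doublets were kept and no caller was run, and leaving out the 5% of cells with most UMIs was 1 of the alternatives. Levels are CPM with exact Poisson 95% intervals, and ratios use a pseudocount of 1 CPM with exact binomial intervals. The ratio intervals were checked on simulated Poisson counts of pooled libraries. Such counts hold no added spread between cells, so the check does not cover that spread. Clusters (Leiden, resolution 0.8) were made with scanpy 1.11.5 and leidenalg 0.10.2 under Python 3.11.15, with scipy 1.17.1. Members, lists and markers were chosen with earlier results of these data known. The text names all 9 members, lipid genes past 1.5-fold or among the 2 highest of a list, and the 3 genes most like *Apoe* and *Cd36*, and genes of other cell types in *Fabp4* cells were chosen after their values were seen. Gene positions are from GENCODE M21 (54723 of 54838 identifiers matched), and promoter windows from RefSeq. One gene is not reported here.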

Additional observations from a re-analysis of the deposited data

How the results depend on the processing

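Each library is 1 sample, so no library could be left out in turn, and depth limits every statement on *Abcg1*, *Nr1h3*, *Fabp4* and *Fabp5*. No paired analysis was possible because each group has 1 library and no replicate numbers. Over 12 alternatives (1 of them, without the mural-like cluster, added after seeing the data), 100 of 108 log2 ratios of YFP+ over YFP− stayed within their intervals and no called ratio reversed. The *Apoe* ratio (−0.36) was −0.32 with a minimum of 1000 UMIs, −0.33 with 10% free RNA removed, −0.44 with equal weights for cells, −0.43 in thinned cells and −0.28 without cells of the Ccr2, cycling and dendritic cell lists. The last choice moved *Fabp4* to 0.67 and *Abcg1* to 1.48, and thinning moved *Abcg1* to 1.99. The *Abca1* ratio ran from −0.54 to −0.33 and that of *Cd36* from 0.10 to 0.20.

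At a resolution of 0.4 the *Apoe* ratio of the *Cd209f*-led cluster was −1.13 in YFP+ cells, and at 1.2 it was −1.18 in YFP− and −0.61 in YFP+ cells. That of the *S100a4*-led cluster was −0.17 and −0.44 at 0.4, and −0.23 and −0.44 at 1.2. *Lpl* in that cluster of the YFP− library reversed, from 0.97 to −0.22 at 0.4 and −0.013 at 1.2, and the cause was not tested. Of the 58 contrasts by state list on at least 50 UMIs, 24 had intervals without 0. The share of all genes with such intervals was not counted, and these intervals hold counting error only. The counts of calls therefore describe these contrasts alone. With 1 UMI on the list as the limit 6 of these calls were lost and 5 gained, with 3 UMIs 3 were lost and 5 gained, and without the mural-like cluster 3 were lost and 4 gained. Leaving it out also turned the YFP− ratio of summed fatty acid synthesis on the Cd209 list from −0.69 to 0.11. Of the values by state list 30 moved beyond their intervals and 144 stayed within them, and of the shares of cells 29 moved and 7 stayed. The count of genes past 1.5-fold (404) was 181 at a minimum of 50 CPM and 4099 without a minimum.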
